A study of Mus musculus with 51 samples.

Results

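Brown and beige fat cells burn fuel to make heat. A set of genes is used to mark them, and 10 of these were followed here: Prdm16, Kcnk3, Cox8b, Cox7a1, Ebf2, Dio2, Elovl3, Zfp516, Letmd1 and Ucp2. Not all of these are confined to such cells, and Zfp516 and Letmd1 were expressed in every library of this study. A rise of a single member is therefore not by itself a sign of brown or beige fat. The 10 genes were taken by name and matched by symbol to the identifiers of a table of counts for 53801 genes. Of the 10, 9 had enough counts to be tested among 17015 genes, and Dio2 did not.

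The cells were C3H/10T1/2-SAM, which are mouse mesenchymal cells labelled as pre-adipocytes, and all of them contained dCas9-VP64 (a Cas9 that cannot cut, joined to an activator) and the activator fusion MS2-P65-HSF1. Guide RNA brings these proteins to a chosen gene and raises its transcription from its own promoter. Cells received 250 ng of plasmid in all: an empty vector (EV, the control), a plasmid with a guide for Pparg (P), or plasmids with guides for Pparg and for Ybx1 (PY). Pparg encodes a nuclear receptor, the main driver of adipocyte formation, and Ybx1 a protein that binds DNA and RNA. All cells, EV included, were given 5 µM rosiglitazone, a PPARG agonist, at day 0, which was 48 hours after transfection. The labels do not say whether the RNA of day 0 was taken before or after the drug was added. Time and drug exposure therefore cannot be told apart in comparisons with day 0. The 51 libraries cover days 0, 2 and 4 of differentiation in 6 experiments, with 5, 6 and 6 libraries for EV, 5, 6 and 6 for P, and 6, 5 and 6 for PY. Each library of a group came from a separate experiment, and libraries are named below by group, day and experiment. The cells are a single line, so the p-values describe the spread between experiments on that line.

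In brown and beige fat, PRDM16 and EBF2 are transcription regulators that set the thermogenic identity, and ZFP516 is a zinc finger protein known to act on the Ucp1 promoter. The heat is made in mitochondria, where UCP1 lets protons back in without making ATP. Cox8b and Cox7a1 encode the forms of 2 subunits of respiratory complex IV that are used in heart, muscle and brown fat, and LETMD1 is a mitochondrial protein that brown fat needs for thermogenesis. Elovl3 encodes an enzyme that lengthens fatty acids, Dio2 the enzyme that makes active thyroid hormone inside the cell, Kcnk3 a potassium channel of the plasma membrane, and Ucp2 a mitochondrial carrier related to UCP1.

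Total counts per library ran from 3381870 in PY day 2 of experiment 3 to 114566739 in P day 0 of experiment 1. The targeted genes followed the labels. Pparg was at 57.1 ± 15.0 CPM (counts-per-million of the scaled library size, mean ± SD, n = 6) in EV at day 4, 239 ± 66 in P and 265 ± 84 in PY (n = 6 each), and Ybx1 was at 578 ± 105, 579 ± 72 and 1873 ± 404 CPM. Some markers of mesenchymal precursors were present, with Pdgfrb at 329 ± 74 CPM (n = 5) and Pdgfra at 83.1 ± 56 CPM (n = 5) in EV at day 0, while Dlk1, a preadipocyte gene, was at 0.22 ± 0.27 CPM there (n = 5). They belong to a list of 16 white fat and preadipocyte genes. Lep, Hoxc8, Hoxc9, Tcf21 and Dpp4 of that list had too few counts to be tested. Of the 11 tested, 3 were higher in P than in EV at day 4 (5.18% of all genes). In PY 3 were higher (7.03%) and 1 lower. With the experiment as a replicate block, 1 was lower in P and 2 in PY. General fat cell genes moved with P and PY. The summed level of 16 of them was 197 to 785 CPM over the EV libraries of day 4, 4320 to 19900 over P and 2050 to 22600 over PY, and 16 of 16 were higher in each of P and PY than in EV (5.18% and 7.03% of all genes). The 16 include Pparg, which the guide itself targets, so its call follows from the transfection. Its CPM are also part of the sums. Since these are bulk samples, fewer fat cells and less RNA per fat cell cannot be told apart in any value below. The part of the fat cell genes in the members' differences was not tested.

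The members are protein-coding genes on several chromosomes (build GRCm38, GENCODE release M21). Prdm16 (ENSMUSG00000039410) is on chromosome 4 at 154316125 to 154636873, minus strand, and Kcnk3 (ENSMUSG00000049265) on chromosome 5 at 30588170 to 30625271, plus strand. Chromosome 7 holds Cox7a1 (ENSMUSG00000074218) at 30184144 to 30186078, plus strand, Ucp2 (ENSMUSG00000033685) at 100493337 to 100502020, plus strand, and Cox8b (ENSMUSG00000025488) at 140898945 to 140900446, minus strand. Dio2 (ENSMUSG00000007682) is on chromosome 12 at 90724552 to 90738438, minus strand, and Ebf2 (ENSMUSG00000022053) on chromosome 14 at 67233292 to 67430918, plus strand. Letmd1 (ENSMUSG00000037353) is on chromosome 15 at 100469023 to 100479164, plus strand, and Elovl3 (ENSMUSG00000038754) on chromosome 19 at 46131897 to 46135694, plus strand. The counting was not stated to use strand, and some members share exon bases with a gene on the other strand. The largest such overlap by counts is 229 bases of Kcnk3 with Gm9899 (4707 counts in all for Kcnk3, 492 for Gm9899), followed by 305 bases of Ucp2 with Dnajb13 (3356 and 183 counts).

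The promoter sequences that the RefSeq table holds are shown for 4 members that were higher in P or PY cells and for Cox7a1, which did not pass the test, since they carry the regions through which such genes are switched on. Each runs from 250 bases before to 50 bases after the RefSeq start, 5′ to 3′ on the gene's strand, build GRCm38.p6: Cox8b at chr7:140900397-140900696 (minus), Ucp2 at chr7:100493108-100493407 (plus), Prdm16 at chr4:154636824-154637123 (minus), Letmd1 at chr15:100468761-100469060 (plus) and Cox7a1 at chr7:30183921-30184220 (plus). Capitals mark AGGTCA (the core site of nuclear receptors), ATTGG or its complement CCAAT (the core of the Y-box that YBX1 was named for), and TATAAA (the TATA box), on either strand.
Cox8b: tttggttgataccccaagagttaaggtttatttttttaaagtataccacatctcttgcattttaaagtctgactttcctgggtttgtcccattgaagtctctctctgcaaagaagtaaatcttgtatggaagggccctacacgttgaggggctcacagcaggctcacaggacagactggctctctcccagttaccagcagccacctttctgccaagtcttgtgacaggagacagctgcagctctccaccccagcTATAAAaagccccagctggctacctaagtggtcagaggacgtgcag
Ucp2: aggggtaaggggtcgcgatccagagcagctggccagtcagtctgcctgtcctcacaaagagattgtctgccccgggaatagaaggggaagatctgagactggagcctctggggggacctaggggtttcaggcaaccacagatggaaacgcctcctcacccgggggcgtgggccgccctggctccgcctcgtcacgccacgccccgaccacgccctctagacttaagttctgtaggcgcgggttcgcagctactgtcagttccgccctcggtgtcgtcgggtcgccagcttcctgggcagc
Prdm16: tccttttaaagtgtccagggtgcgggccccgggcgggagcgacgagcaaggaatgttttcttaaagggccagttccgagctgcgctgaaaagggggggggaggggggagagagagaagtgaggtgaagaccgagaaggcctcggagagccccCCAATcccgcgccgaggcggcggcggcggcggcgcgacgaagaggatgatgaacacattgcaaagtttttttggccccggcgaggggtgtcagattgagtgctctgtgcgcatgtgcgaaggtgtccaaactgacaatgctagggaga
Letmd1: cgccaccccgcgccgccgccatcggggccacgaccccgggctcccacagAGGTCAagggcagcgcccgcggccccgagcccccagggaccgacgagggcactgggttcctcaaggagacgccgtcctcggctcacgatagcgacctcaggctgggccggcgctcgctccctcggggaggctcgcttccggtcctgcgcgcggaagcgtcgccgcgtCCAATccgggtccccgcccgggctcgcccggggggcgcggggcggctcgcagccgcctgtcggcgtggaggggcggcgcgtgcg
Cox7a1: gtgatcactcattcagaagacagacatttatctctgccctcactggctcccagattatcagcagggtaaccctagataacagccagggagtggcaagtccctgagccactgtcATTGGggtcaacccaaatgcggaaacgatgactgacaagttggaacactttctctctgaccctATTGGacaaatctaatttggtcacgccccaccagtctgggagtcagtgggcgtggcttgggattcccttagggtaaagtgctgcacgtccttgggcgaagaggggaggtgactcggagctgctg

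Promoters were found in that table for 6 members, those 5 and Dio2. TATAAA was in 2 of the 6, Cox8b (from position 5 after the start) and Dio2 (from position -30), and in 13.6% of 32851 promoters of that length. ATTGG was in 3 of the 6, Prdm16 at -98, Cox7a1 at -137 and -74, and Letmd1 at -34, against 37.4% of all promoters. AGGTCA was in Letmd1 at -201 and in none of the other 5, against 16.3% of all promoters, and the direct repeat of that core with a spacer of 1 base (DR1, any base allowed at position 4 of each core), to which PPARG binds with its partner RXR, was in 0 of 6 and in 0.381% of all. These are matches of letters in a short window and show neither binding nor its absence.

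**Figure D1:**
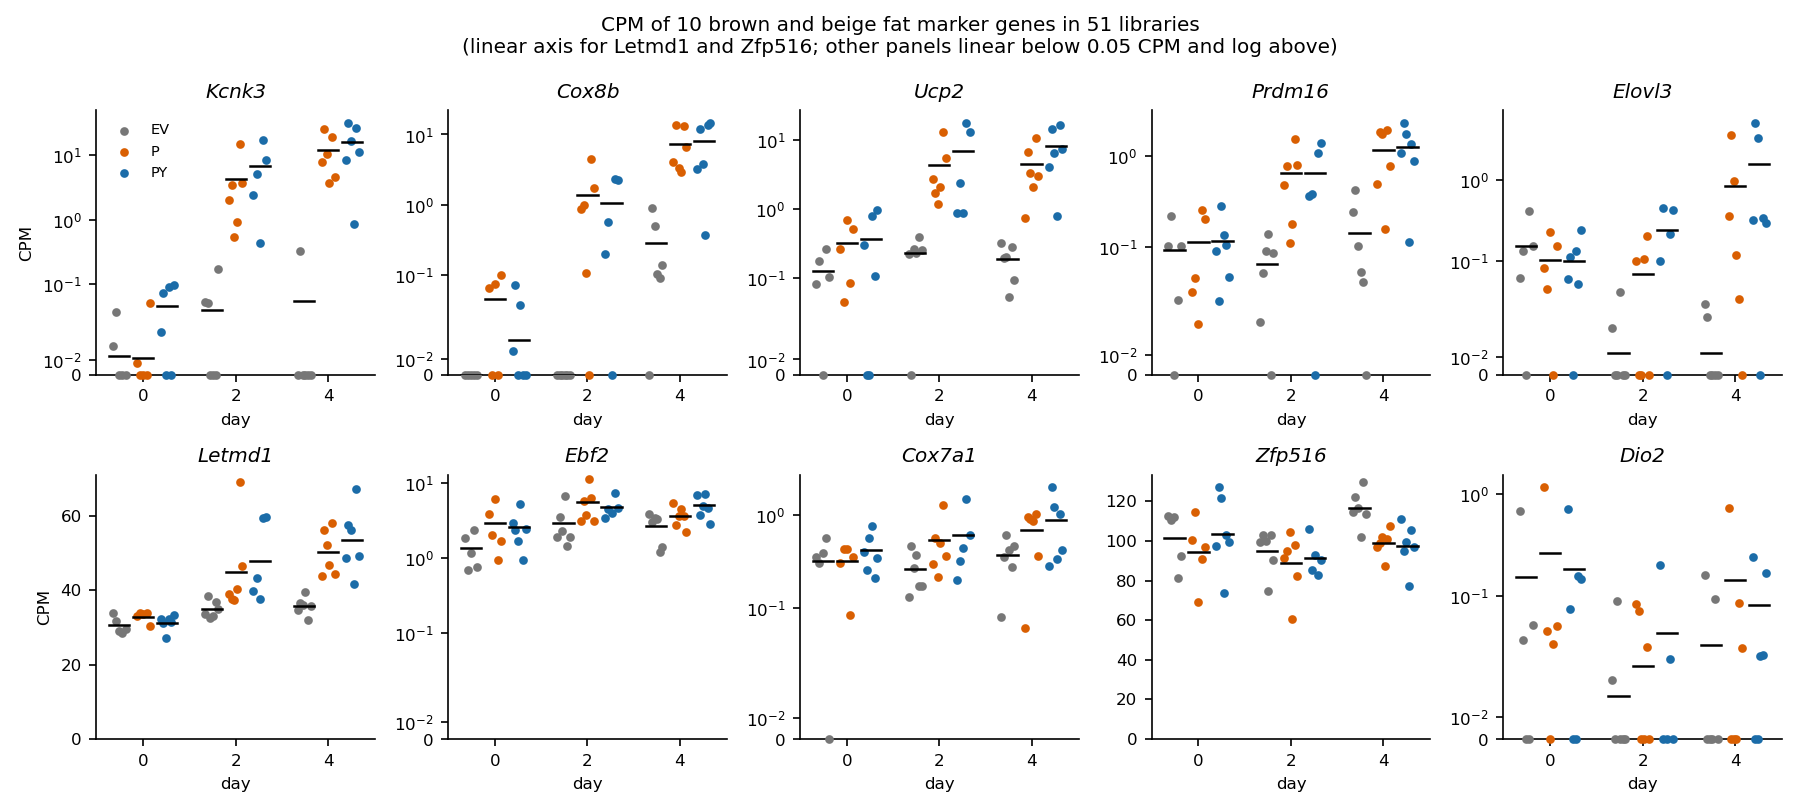
CPM of the 10 marker genes in each of the 51 libraries (points) by day and transfection, with black bars at the group means. Axes are linear for Letmd1 and Zfp516, and linear below 0.05 CPM and logarithmic above it for the others. At day 2 every P and PY library lies above EV for Kcnk3 and Ucp2, the Cox8b and Prdm16 groups still overlap, and Zfp516 stays between 60.7 and 130 CPM throughout. The PY library of experiment 3 at day 2 holds only 1 count of Kcnk3 and 2 of Ucp2.

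At day 0, no member passed the test between transfections. In edgeR's quasi-likelihood test with Benjamini-Hochberg adjustment over 17015 genes, 0 of 9 tested members passed an adjusted p of 0.05 in P against EV, where 0.00588% of all genes passed, 0 of 9 in PY against EV (0.047% of all genes) and 0 of 9 in PY against P (0.0294%). DESeq2 also called 0 members in each. On the compared day 0 groups alone, only Ebf2, Zfp516 and Letmd1 had enough counts to be tested. Prdm16, Kcnk3, Cox8b, Cox7a1, Elovl3 and Ucp2 were in the fit of 51 libraries through other groups. The absence of a call at day 0 therefore says little about them. Ebf2 was the 1 member with an unadjusted p under 0.05, at 2.13-fold in P against EV and 1.90-fold in PY against EV, both with an edgeR adjusted p of 1. Cox8b had 0 counts in all 5 EV libraries of day 0, against 13 counts over the P libraries and 4 over the PY libraries. Kcnk3 had 2 counts in EV, 2 in P and 8 in PY at this time.

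Of the transcription regulators, Prdm16 was higher in P and PY and Ebf2 and Zfp516 did not pass. Prdm16 was scarce throughout. At day 0 it was at 0, 0.0371, 0.102, 0.102 and 0.218 CPM in the 5 EV libraries. At day 2, EV ran from 0 to 0.139 CPM with a median of 0.0679, P from 0.108 to 1.54 with a median of 0.631, and the 5 PY libraries were at 0, 0.364, 0.381, 1.06 and 1.38 CPM. The P and EV ranges met only at the P library of experiment 3 (1 count), and in PY the library at 0 was the shallowest of the study, where a count of 0 allows up to 1.32 CPM. The fold change at day 2 was 10.9 in P against EV (95% interval 3.87 to 30.8, edgeR adjusted p = 0.0035, higher in 6 of 6 experiments) and 12.2 in PY against EV (4.19 to 35.7, adjusted p = 0.0020, higher in 4 of 5).

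By day 4 Prdm16 stood at 1.15 ± 0.78 CPM in P and 1.24 ± 0.75 in PY (n = 6 each), against 0.14 ± 0.16 in EV (n = 6). The fold change was 7.06 (2.88 to 17.3, edgeR adjusted p = 0.0034) in P and 7.28 (2.96 to 17.9, adjusted p = 0.0022) in PY, in the same direction in 6 of 6 experiments for each. Without the EV library of experiment 2, which held 13 of the 22 EV counts, these became 12.2-fold and 12.6-fold. That library also had the highest sum of the 16 fat cell genes among EV libraries of day 4 (785 CPM).

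Ebf2, which marks brown and beige precursors, was already present at day 0, at 1.36 ± 0.71 CPM in EV (n = 5), 2.93 ± 2.1 in P (n = 5) and 2.59 ± 1.4 in PY (n = 6). It reached 2.97 ± 2.0, 5.53 ± 3.1 and 4.76 ± 1.5 CPM at day 2 (n = 6, 6 and 5), and stood at 2.71 ± 1.1, 3.68 ± 1.2 and 5.02 ± 1.7 at day 4 (n = 6 each). The groups overlapped on every day. In P against EV the fold change was 1.87 at day 2 (edgeR adjusted p = 0.39) and 1.36 at day 4 (adjusted p = 0.76), and in PY against EV it was 1.63 (adjusted p = 0.45) and 1.87 (adjusted p = 0.22). With the experiment as a replicate block, Ebf2 passed in 3 of these 4, at 1.95-fold in P at day 2 (adjusted p = 0.036), 2.16-fold in PY at day 2 (0.015) and 1.89-fold in PY at day 4 (0.025).

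Zfp516 (ENSMUSG00000058881, chromosome 18, 82910663 to 83005314, plus strand) was the most abundant member in CPM, and its levels ranged from 60.7 to 130 CPM over the 51 libraries. Its mean was 117 ± 9.3 CPM in EV at day 4, 99.0 ± 6.7 in P and 97.6 ± 11 in PY (n = 6 each). The fold change was 0.85 in P against EV (0.723 to 0.997, edgeR adjusted p = 0.40) and 0.84 in PY against EV (0.713 to 0.984, adjusted p = 0.24), so neither passed. In P the unadjusted p was not under 0.05 either, although the approximate interval leaves out an unchanged level. Each was lower in 6 of 6 experiments, and with the experiment as a replicate block both passed (adjusted p = 0.032 in P and 0.010 in PY). Experiment 4 had the lowest Zfp516 in 8 of 9 groups, and PY had no library of experiment 4 at day 2.

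Kcnk3 was nearly absent in EV and counted in every P and PY library from day 2. At that time the EV libraries held 0, 0, 0, 1, 4 and 4 counts, or at most 0.169 CPM, while P libraries ran from 0.54 to 15.1 CPM with a median of 2.77. The 5 PY libraries were at 0.438, 2.39, 5.21, 8.51 and 17.3 CPM. The lowest, of experiment 3, held 1 count, in a library where a count of 0 allows up to 1.32 CPM. Every P and PY library was above every EV library, for that PY library by this single count. Kcnk3 was 78.7-fold higher in P (22.1 to 280, edgeR adjusted p = 1.2e-05) and 129-fold higher in PY (35.4 to 469, adjusted p = 1.9e-06). Single libraries moved these folds: without EV of experiment 6 they were 123 and 203, without P of experiment 5 the P value was 39.6, and without PY of experiment 5 the PY value was 81.0.

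At day 4 Kcnk3 was at 0 counts in 5 of 6 EV libraries and at 0.322 CPM (10 counts) in that of experiment 2. P libraries ran from 3.70 to 25.6 CPM with a median of 9.18, and PY libraries from 0.85 to 32.0 with a median of 13.98. Again no P or PY library reached down to the EV range. The fold change was 155 in P (44.3 to 540, edgeR adjusted p = 4.2e-07) and 207 in PY (58.7 to 731, adjusted p = 1.2e-07). Leaving out the EV library of experiment 2 leaves EV at 0 counts, and against the 3 counts over the group that this allows, Kcnk3 was at least 372-fold higher in P and at least 444-fold higher in PY.

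Among the mitochondrial members, Cox8b, Letmd1 and Ucp2 were higher in P and PY, and Cox7a1 did not pass. Cox8b had 0 counts in all 6 EV libraries of day 2. P libraries of that day were at 0, 0.108, 0.862, 0.993, 1.71 and 4.51 CPM, and PY libraries at 0, 0.199, 0.571, 2.28 and 2.31 CPM. The groups touched at 0 only, in P of experiment 4 and PY of experiment 3. Against a floor of 3 counts over the EV group, Cox8b was at least 80.4-fold higher in P and at least 78.3-fold higher in PY (edgeR adjusted p = 6.3e-04 and 7.8e-04).

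Cox8b was then counted in EV too, with 40 counts at day 4, of which 28 were in experiment 2. EV ran from 0 to 0.901 CPM with a median of 0.122, P from 2.89 to 13.6 with a median of 5.37, and PY from 0.37 to 14.6 with a median of 7.96. All P libraries lay above EV, and the PY library of experiment 4 fell within the EV range. The fold change was 24.6 in P (7.42 to 81.8, edgeR adjusted p = 4.0e-04) and 26.7 in PY (7.99 to 89.1, adjusted p = 2.2e-04), and 53.4 and 58.0 without EV of experiment 2.

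Ucp2 was at 0.23 ± 0.13 CPM in EV at day 2 (n = 6), 4.41 ± 4.6 in P (n = 6) and 6.99 ± 7.9 in PY (n = 5). The highest EV library stood at 0.389 CPM, the lowest P library at 1.19 and the lowest PY library at 0.861, so the groups did not overlap. The PY library of experiment 3, at 0.877 CPM, held only 2 counts. Ucp2 was 19.2-fold higher in P (6.34 to 58.3, edgeR adjusted p = 6.0e-04) and 31.5-fold higher in PY (10.0 to 99.1, adjusted p = 6.1e-05). Without the highest library of each group, both of experiment 5, the folds were 11.6 and 19.7. At day 4 EV ran from 0.0521 to 0.316 CPM, P from 0.726 to 10.8 and PY from 0.776 to 16.7, again without overlap. The fold change was 22.7 in P (7.23 to 71.4, adjusted p = 2.0e-04) and 42.0 in PY (13.1 to 135, adjusted p = 1.1e-05).

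Letmd1 was expressed in every library and differed by less than 2-fold between group means, with a small spread. EV libraries stayed between 28.6 and 39.5 CPM on all days. At day 4 P was at 50.2 ± 6.2 CPM and PY at 53.4 ± 8.9 (n = 6 each), and their lowest libraries, at 43.7 and 41.6 CPM, were above the highest EV library of that day at 39.5. Letmd1 was 1.40-fold higher in P (1.2 to 1.65, edgeR adjusted p = 0.0049) and 1.49-fold higher in PY (1.27 to 1.75, adjusted p = 4.7e-04), in 6 of 6 experiments each. At day 2 it was 1.38-fold higher in PY (adjusted p = 0.015), a call lost without PY of experiment 5 (adjusted p = 0.138) or of experiment 6 (0.102). In P of day 2 it was at 1.29-fold (adjusted p = 0.088), which passed with the experiment as a replicate block (0.037) or without P of experiment 3 (0.044).

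Cox7a1 stayed below 2 CPM everywhere. At day 4 EV ran from 0.0791 to 0.609 CPM, P from 0.0605 to 1.01 and PY from 0.281 to 1.97, and the ranges overlapped. The fold change at day 4 was 1.96 in P (0.935 to 4.12, edgeR adjusted p = 0.49) and 2.24 in PY (1.06 to 4.75, adjusted p = 0.26), so a change of a few fold could not be told from none at this depth. At day 2 it was 2.14 (adjusted p = 0.54) and 2.57 (adjusted p = 0.23). Without PY of experiment 5, the PY value fell from 1.36 to 0.59 on the log2 scale.

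Elovl3 was higher in P and PY at day 4, and 2 experiments carried most of it. In EV it was at 0, 0, 0, 0, 0.0322 and 0.0395 CPM. In P, experiments 2 and 3 were at 3.58 and 0.966 CPM, and the other 4 libraries ran from 0 to 0.363. In PY the same experiments were at 5.09 and 3.35 CPM, and the other 4 ran from 0 to 0.335. The P library of experiment 6 and the PY library of experiment 4 held 0 counts, within the EV range. Elovl3 was 41.2-fold higher in P (7.65 to 221, edgeR adjusted p = 0.0030) and 69.9-fold in PY (13.3 to 366, adjusted p = 3.2e-04). Without P of experiment 2 the P value was 13.4-fold and did not pass (adjusted p = 0.104), and without PY of experiment 2 the PY value was 41.9-fold (adjusted p = 0.0020).

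At day 2 Elovl3 had 14 counts over P, 26 over PY and 3 over EV, and did not pass (edgeR adjusted p = 0.81 and 0.11). In PY it passed with the experiment as a replicate block (13.1-fold, adjusted p = 0.049) and in DESeq2 (adjusted p = 0.046). Elovl3 had more counts in EV at day 0 (20 counts, 0.15 ± 0.16 CPM, n = 5) than at day 2 (3 counts) or day 4 (2 counts), with a fold of 0.12 at day 4 against day 0 and an edgeR adjusted p of 0.10.

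Dio2 had 286 counts in the 51 libraries, 24 of which held none, and was not tested. Counts came mostly from experiment 1: at day 0 that experiment had 33 counts in EV, 142 in P and 48 in PY, while the other libraries of day 0 had 2, 3 and 8 in all. In CPM these were 0.675, 1.17 and 0.714. In a fit of 43837 genes without the filter on low counts, Dio2 passed in none of the 23 comparisons.

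**Figure D2:**
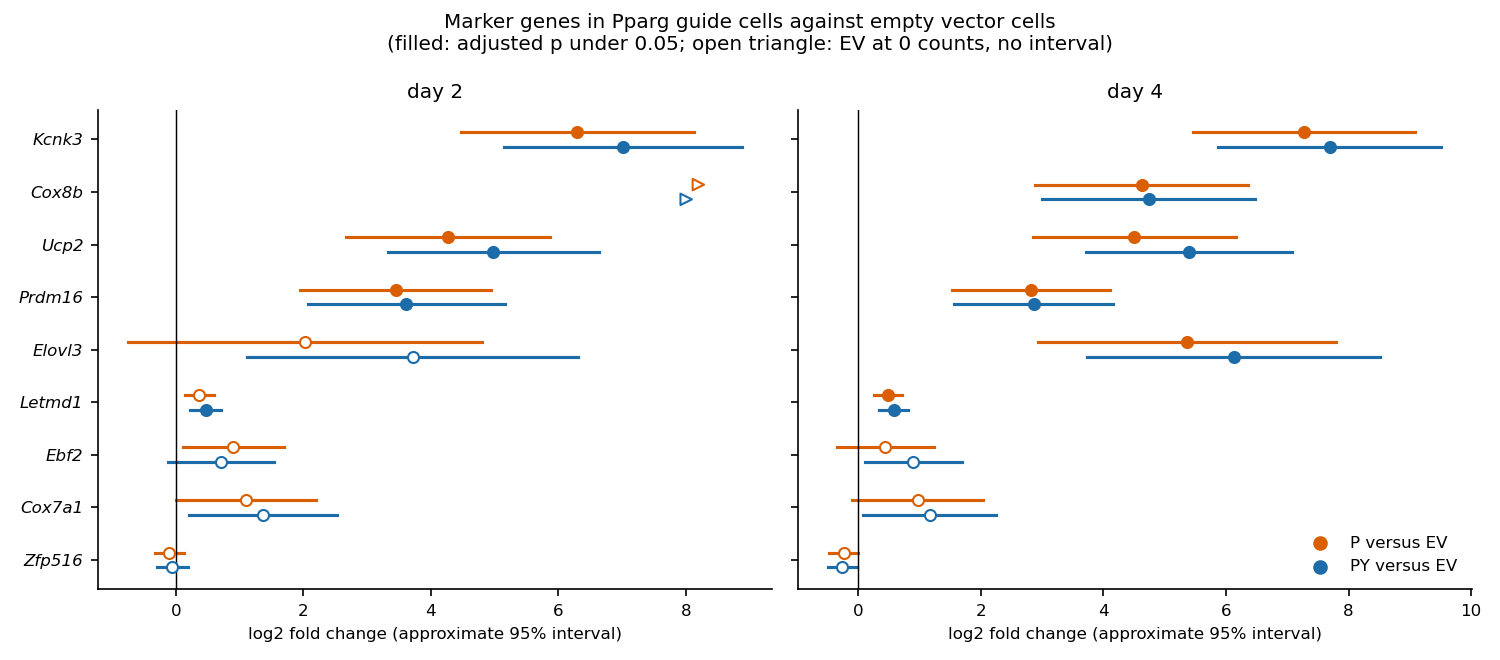
Log2 fold changes of the 9 tested members in P (orange) and PY (blue) against EV at days 2 and 4, with approximate 95% intervals. Filled points have an edgeR adjusted p under 0.05, and open triangles mark Cox8b at day 2, where EV held 0 counts, the fit gives no interval and both comparisons also passed. Kcnk3 lies farthest to the right at day 4, at 7.27 and 7.69, and Zfp516 at or below 0.

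Counted over the members, 4 of 9 were higher in P than in EV at day 2 (Prdm16, Kcnk3, Cox8b and Ucp2), where 2.78% of all 17015 genes were called higher and 2.84% in either direction. In PY at day 2 the count was 5 of 9, with Letmd1 added (4.34% of all genes higher, 4.74% in either direction). At day 4 it was 6 of 9 in P (5.18% and 5.38%) and 6 of 9 in PY (7.03% and 7.83%), the same 6 genes, with Elovl3 and Letmd1 beside the 4. Of these called members, Prdm16 and Elovl3 had too few counts to be tested on the compared groups alone at day 4. At day 2 the same held for Prdm16 and Cox8b in P and for Prdm16, Kcnk3 and Cox8b in PY. Those calls rest on the filter over all 51 libraries. Every library stood above every EV library in 2 of 9 members at day 2 (2.17% of all genes in P, 2.59% in PY), Kcnk3 and Ucp2. The PY library of experiment 3 held only 1 and 2 counts of these. At day 4 every library stood above every EV library in P for 4 members, Letmd1 and Cox8b added (3% of all genes), and in PY for 3, Letmd1 added (2.47%). No member was lower. The median log2 fold change of the 9 members at day 4 was 2.82 in P and 2.86 in PY, beside -0.06 and -0.05 over all genes tested. With the experiment as a replicate block, the members called were 6 and 7 at day 2 (5.49% and 10.2% of all genes) and 7 and 8 at day 4 (10.1% and 15.8%), with Zfp516 lower in both at day 4. P and PY were set against the same EV libraries.

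Adding the Ybx1 guide to the Pparg guide gave no called difference in any member. In PY against P, 0 of 9 passed at day 2 (0.0118% of all genes passed) and 0 of 9 at day 4 (0.0176%) in edgeR, with 0 members at an unadjusted p under 0.05 on any day and 0 in DESeq2. At day 4 the widest difference was in Ucp2, at 8.33 ± 6.1 CPM in PY and 4.45 ± 3.7 in P (n = 6 each), 1.85-fold (0.752 to 4.55, adjusted p = 1) and higher in PY in 5 of 6 experiments. Ebf2 was 1.37-fold (0.798 to 2.36) and higher in 6 of 6 experiments, Elovl3 1.70-fold (0.590 to 4.89) in 4 of 6 and Kcnk3 1.34-fold (0.582 to 3.08) in 5 of 6, each with an adjusted p of 1. The Elovl3 difference rested on experiment 2: from 0.76 on the log2 scale it went to 0.021 without PY of that experiment and to 2.38 without P of it.

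The intervals show how much could have been missed. For Prdm16 (1.03-fold, 0.478 to 2.22), Cox8b (1.08-fold, 0.412 to 2.85) and Cox7a1 (1.14-fold, 0.562 to 2.32) at day 4, a difference of 2-fold towards PY lies within the interval. For Letmd1 (1.06-fold, 0.907 to 1.25) and Zfp516 (0.986-fold, 0.840 to 1.16) the intervals end below 1.3-fold. A test of whether the difference between PY and P itself changed from day 0 to day 4 passed for 0 of 9 members in edgeR (0% of all genes), with 0 at an unadjusted p under 0.05 and 0 in DESeq2.

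**Figure D3:**
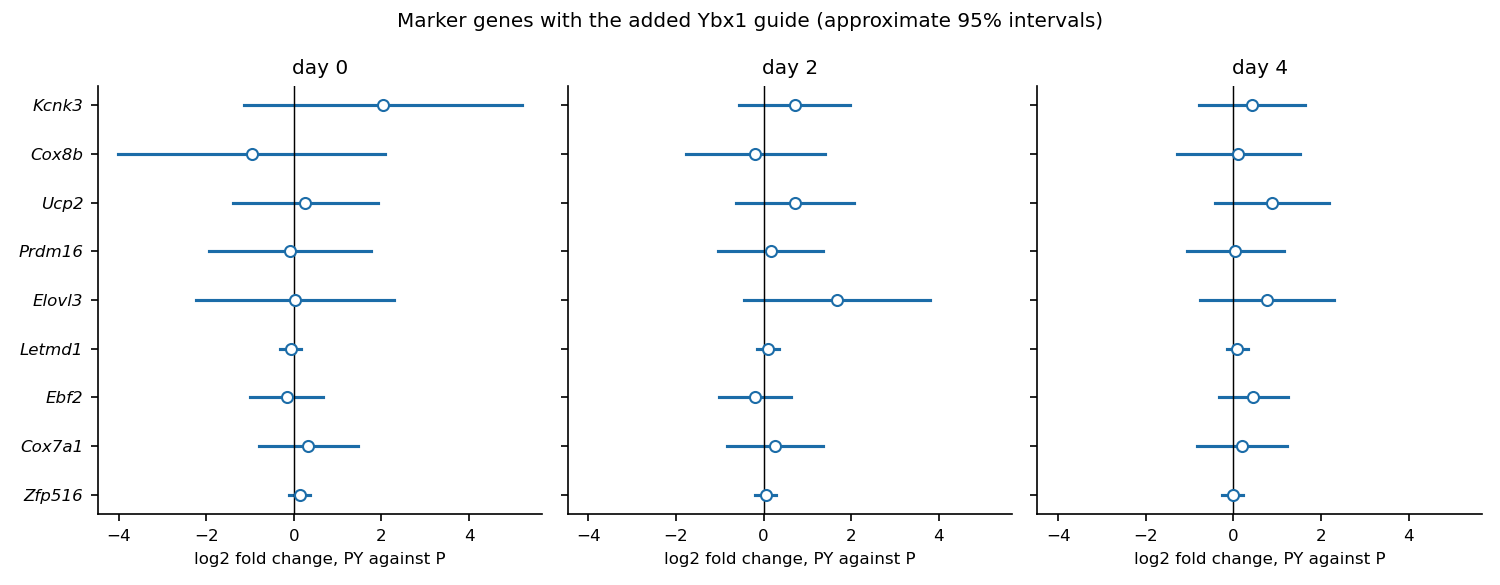
Log2 fold changes of PY against P for the 9 tested members on days 0, 2 and 4, with approximate 95% intervals. Open points mark results that did not pass; all 27 intervals include 0, and they are narrowest for Letmd1 and Zfp516.

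Over time within a transfection, several members rose in P and PY between day 0 and day 2. In P, 5 of 9 were higher at day 2 than at day 0 (Prdm16, Kcnk3, Cox8b, Letmd1 and Ucp2), where 6.99% of all genes were called higher and 14% in either direction, and in PY the same 5 (11.4% and 22.8%). Of these, Prdm16 and Cox8b in P, and Prdm16, Kcnk3 and Cox8b in PY, had too few counts to be tested on the compared groups alone. Kcnk3 rose 316-fold in P (64.8 to 1540, edgeR adjusted p = 3.9e-06) and 126-fold in PY (33.5 to 474, adjusted p = 1.7e-06), and Ucp2 13.4-fold (4.37 to 41.1, adjusted p = 0.0015) and 18.3-fold (6.06 to 55.1, adjusted p = 1.9e-04). Without the day 2 library of experiment 5 these were 159-fold and 8.08-fold in P and 79.1-fold and 11.4-fold in PY, and Letmd1 in P, at 1.37-fold with all libraries, lost its call (adjusted p = 0.074). With the experiment as a replicate block, the rise of Kcnk3 in P was 198-fold, and Ebf2 was also called in EV (2.25-fold, adjusted p = 0.0091), P (2.04-fold, 0.0088) and PY (2.34-fold, 0.0021), and Zfp516 in PY (0.850-fold, 0.017). Of all 17015 genes, the block called 3746 in EV, 4866 in P and 6050 in PY between these days. In EV, 0 of 9 passed between day 0 and day 2 (2.87% of all genes higher, 7.29% in either direction) in edgeR and in DESeq2, with Ebf2 and Elovl3 at an unadjusted p under 0.05. In every comparison of days in EV, only Ebf2, Zfp516 and Letmd1 had enough counts to be tested on the compared groups alone. The absence of a call there says little about the other members.

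From day 2 to day 4, 0 of 9 passed in P (1.28% of all genes), 0 of 9 in PY (0% of all genes) and 0 of 9 in EV (0.0353%) in edgeR. DESeq2 called 0, 0 and 1 member, and 3, 2 and 2 had an unadjusted p under 0.05. Cox8b still had means of 1.36 ± 1.7 CPM at day 2 and 7.32 ± 4.9 at day 4 in P (n = 6 each), a fold of 5.22 (1.86 to 14.7, edgeR adjusted p = 0.086) that was higher in 6 of 6 experiments. With the experiment as a replicate block, Kcnk3 and Cox8b passed in both P and PY (3.34-fold and 6.50-fold in P, 2.65-fold and 7.76-fold in PY, adjusted p at most 0.043), where 20.2% of all genes passed in P and 5.7% in PY. In EV the block called Cox8b and Zfp516 (20.1% of all genes). Kcnk3 and Cox8b also passed in P without the day 2 library of experiment 5 (5.41-fold and 9.39-fold). Elovl3 in P, at 9.62-fold (adjusted p = 0.065), passed without P day 2 of experiment 5 (13.1-fold) and without P day 4 of experiment 1 (10.7-fold) or 4 (11.4-fold).

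Between day 0 and day 4, 6 of 9 rose in P (18.7% of all genes called higher, 37.3% in either direction), 6 of 9 in PY (19.7% and 37.5%) and 1 of 9, Cox8b, in EV (15.1% and 30%). Of these, Elovl3 in P, and Prdm16, Cox8b and Elovl3 in PY, had too few counts to be tested on the compared groups alone. For Cox8b in EV the rise was at least 12.8-fold, from 0 counts to 40 (edgeR adjusted p = 0.021). The call was lost without EV day 4 of experiment 2 (adjusted p = 0.105) or EV day 0 of experiment 1 or 4 (0.053 and 0.051). Elovl3 in P rose 7.53-fold (2.07 to 27.4, adjusted p = 0.014), and this call was lost without P day 4 of experiment 2 (2.46-fold, adjusted p = 0.30) and with the experiment as a replicate block (3.46-fold, adjusted p = 0.077). With the block, Ebf2 and Zfp516 were also called in EV over this time, at 2.18-fold and 1.15-fold, and Ebf2 in PY at 1.98-fold, which DESeq2 also called (adjusted p = 0.049). Of all 17015 genes, the block called 7601 in EV, 8756 in P and 8888 in PY over this time, and DESeq2 called 6687 in PY.

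Whether the differences from EV themselves changed with time was tested directly. From day 0 to day 2 the change of the P to EV difference passed for 0 of 9 members in edgeR (0.0588% of all genes) and for Kcnk3 in DESeq2 (adjusted p = 0.021), with Prdm16, Kcnk3 and Ucp2 at an unadjusted p under 0.05. For PY it passed for 0 of 9 in edgeR (0.118% of all genes) and in DESeq2, with 4 members under that unadjusted p. From day 2 to day 4 it passed for 0 of 9 in P and in PY (0% of all genes in each). Cox8b could not be judged in these tests, since EV had no counts at day 0 and day 2.

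**Figure D4:**
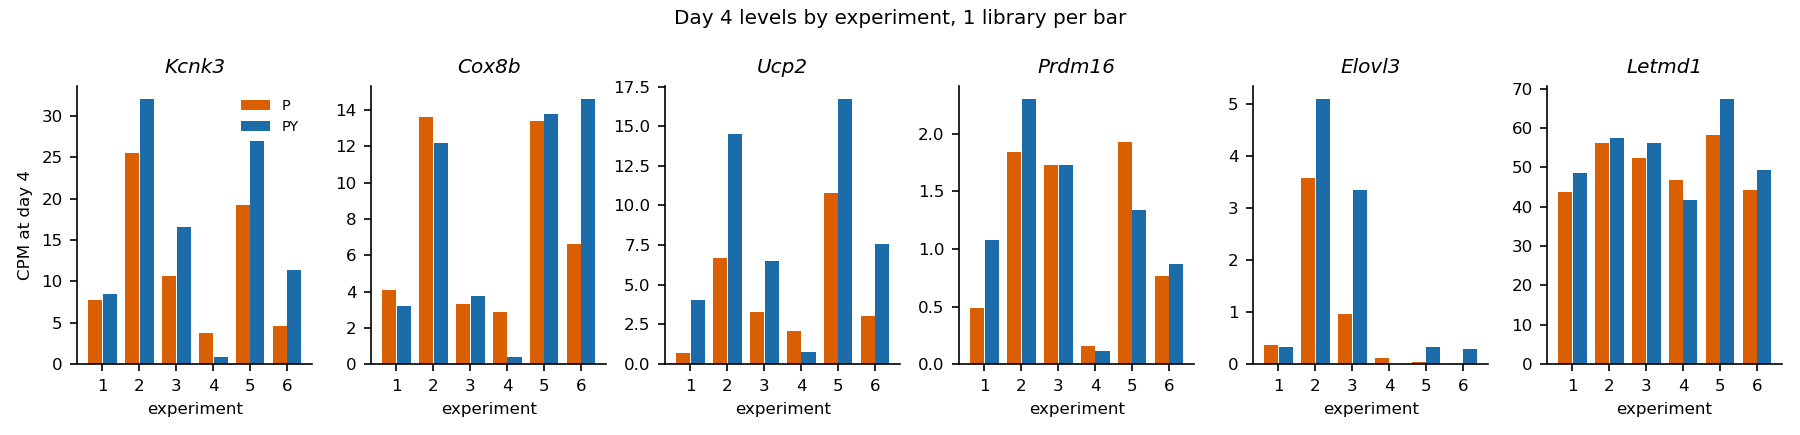
CPM at day 4 of 6 members by experiment, 1 library per bar, in P (orange) and PY (blue). Experiment 4 is lowest for Kcnk3, Cox8b, Prdm16 and Ucp2 in PY, experiments 2 and 5 are highest for Kcnk3 in both transfections, and Elovl3 is high in experiments 2 and 3.

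Several members were low or high in the same experiments. In PY at day 4, experiment 4 had 0.85 CPM of Kcnk3, 0.37 of Cox8b, 0.776 of Ucp2 and 0.111 of Prdm16, the lowest of the 6 for each. Elovl3 held 0 counts there, Cox7a1 was at 0.333 CPM, second lowest of the 6, and Ebf2 was the highest of the 6 at 7.17 CPM. The library's sum of the 16 general fat cell genes, 2050 CPM, was also the lowest of that group. Experiments 2 and 5 had the most Kcnk3, with P libraries at 25.6 and 19.2 CPM, PY libraries at 32.0 and 27.0 CPM, and fat cell gene sums of 19900 and 15900 CPM in P and 22600 and 18000 in PY. At day 2 the P library of experiment 5 led for Kcnk3 (15.1 CPM), Ucp2 (13.3), Cox8b (4.51), Prdm16 (1.54), Letmd1 (68.9), Cox7a1 (1.26) and Elovl3 (0.203), with a fat cell gene sum of 15300 CPM against 2710 to 8340 in the other 5. Elovl3 did not follow that order at day 4: experiment 5 had 0.042 CPM in P and 0.335 in PY.

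Over the 51 libraries, log2 CPM of Kcnk3 correlated with that of Cox8b at r = 0.917, Letmd1 at 0.914, Ucp2 at 0.911 and Prdm16 at 0.885. After subtraction of the 9 group means these were 0.858, 0.761, 0.673 and 0.803. Zfp516 stood apart from Kcnk3 (-0.158, and 0.146 within groups) and ran opposite to Ebf2 (-0.513, and -0.539 within groups). Ebf2 within groups showed r = -0.00 with Kcnk3. The libraries share transfection, day, experiment and depth, and these values are descriptions only.

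Non-member genes with the most similar patterns were taken from the 3 of highest r for each member over the 51 libraries. For Kcnk3 they were Adig (0.984), Slc36a2 (0.983) and Mrap (0.983), and those for Cox8b included Pnpla3 (0.948) and Adrb3 (0.948). Those for Letmd1 included Mpdu1 (0.956) and Gnpat (0.951). They were for Ucp2 Acadvl (0.954), Chp1 (0.953) and Fabp5 (0.948), and for Prdm16 B3galt2 (0.913), Sowahc (0.912) and Gramd1b (0.910). Zfp516 was closest to Rilpl1 (0.888), Zscan21 (0.859) and Zfp12 (0.853), Elovl3 to Tbc1d20 (0.856), Ppip5k1 (0.835) and Dnajb9 (0.800), and Ebf2 to Parm1 (0.805), Itgad (0.801) and Fah (0.794). Cox7a1 had no close pattern, with Abcg1 (0.672), Myl6b (0.671) and mt-Nd1 (0.670) nearest.

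Per kilobase of exon, which allows levels to be compared between genes, the order in P at day 4 was Cox8b (20.3 ± 14 CPM per kilobase, n = 6), Zfp516 (11.96 ± 0.81), Letmd1 (10.4 ± 1.3), Kcnk3 (2.998 ± 2.2), Cox7a1 (1.29 ± 0.72), Ucp2 (0.636 ± 0.53), Ebf2 (0.531 ± 0.17), Elovl3 (0.428 ± 0.70), Prdm16 (0.124 ± 0.083) and Dio2 (0.0244 ± 0.050). Neighbours in this order differed by less than the larger of their SDs, except Zfp516 and Letmd1, Letmd1 and Kcnk3, and Prdm16 and Dio2. Exon lengths are those of all annotated exons of a gene joined together, 360 bases for Cox8b, 535 for Cox7a1, 4847 for Letmd1 and 6989 for Ucp2. A joined length can exceed that of the transcripts present, which lowers the value of that gene. The order therefore depends on this definition of length. In EV at day 4 Zfp516 (14.1 ± 1.1) and Letmd1 (7.38 ± 0.51) led, and Cox8b was at 0.807 ± 0.96.

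Relatives of the members gave a mixed picture. Of 21 relatives, 15 could be tested. At day 4, 4 of the 15 were higher in P than in EV (5.18% of all genes), Ucp3 (35.0-fold, edgeR adjusted p = 5.5e-06), Cox8a (1.94-fold, adjusted p = 2.5e-04), Cox7a2 (1.67-fold, adjusted p = 0.0049) and Letm1 (1.47-fold, adjusted p = 9.1e-04), the same 4 were higher in PY (7.03% of all genes), and none was lower. With the experiment as a replicate block, 3 relatives were lower in PY at day 4: Mecom (0.748-fold), Ebf3 (0.831-fold) and Zfp521 (0.652-fold), with every PY library of Zfp521 below every EV library. Cox8a, the form of the subunit found in most tissues, was far above Cox8b per kilobase, at 425 ± 133 against 20.3 ± 14 CPM per kilobase in P at day 4, and Cox7a2 above Cox7a1, at 109 ± 32 against 1.29 ± 0.72. Ucp3, the muscle form of the uncoupling proteins, was at 1.63 ± 1.4 CPM per kilobase there.

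Of 50 other genes linked to brown and beige fat, 39 could be tested. In P, 11 were higher than in EV at day 2 (2.78% of all genes) and 11 at day 4 (5.18%). In PY, 13 were higher at day 2 (4.34%) and 15 at day 4 (7.03%), and none was lower in P or PY. The replicate block called 5.49% and 10.1% of all genes in P at these days and 10.2% and 15.8% in PY, in either direction. With the experiment as a replicate block, 13 and 14 were higher in P and 14 and 16 in PY, and some were lower: Foxc2 in P at day 4, Slc29a1, Foxc2 and Me3 in PY at day 2, and Slc29a1, Foxc2, Tbx1 and Ebf3 in PY at day 4, named for that call after their values were seen. The median log2 fold change of the 39 at day 4 was 0.15 in P and 0.30 in PY. The 8 with the smallest p at day 4 were Slc36a2 (an amino acid transporter, 93.9-fold in P), Adrb3 (a receptor for noradrenaline, 193-fold), Clstn3 (24.1-fold), Ppara (a nuclear receptor for fatty acids, 39.1-fold), Alpl (an alkaline phosphatase, 14.7-fold), Otop1 (a proton channel, 45.8-fold), Aifm2 (3.11-fold) and Mtus1 (2.69-fold), each with an edgeR adjusted p of at most 3.9e-04. Adrb3 is also among the general fat cell genes above and is counted in both lists. Cidea, a lipid droplet protein, was at 0.22 ± 0.22 CPM in P and 0.50 ± 0.39 in PY at day 4 (n = 6 each), 6.46-fold and 12.3-fold above EV (adjusted p = 0.059 and 0.0021). In P it passed with the experiment as a replicate block (adjusted p = 0.045).

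Ucp1 itself, which defines thermogenic fat, was nearly absent. No library held more than 10 counts, and it was left out of the test by the filter on low counts. All 6 P libraries of day 4 held 0, where a count of 0 allows 0.117 to 0.207 CPM, against 20 counts in the 5 P libraries of day 0. In the fit of 43837 genes without that filter, this fall in P from day 0 to day 4 passed (edgeR adjusted p = 0.0225), and Ucp1 passed in none of the other 22 comparisons. Ppargc1a, a coactivator of mitochondrial genes, was at 11.9 ± 17 CPM in EV, 11.9 ± 17 in P and 11.3 ± 16 in PY at day 4 (n = 6 each), and did not pass in P or PY (0.996-fold and 0.920-fold, edgeR adjusted p = 0.999 and 0.983).

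Cox8b, Cox7a1, Kcnk3 and Ucp3 are also expressed in muscle or heart, so markers of those tissues were read beside them. Of 14 skeletal muscle markers 4 were tested and none passed in P or PY at day 2 or 4, and their summed level at day 4 was 1.64 to 44.3 CPM in EV, 2.14 to 39.5 in P and 3.25 to 60.7 in PY. Myod1 had 23 counts in all 51 libraries and Myog 112. Of 8 heart markers 2 were tested and none passed, with sums of 0.914 to 5.21, 0.727 to 5.65 and 0.628 to 12.7 CPM at day 4, though with the experiment as a replicate block 1 of them was lower in P and in PY at day 2. No marker was at 0 in every library. Of 8 smooth muscle markers 7 were tested and Des alone was higher at day 4 (5.18% of all genes in P, 7.03% in PY), at 3.61 ± 1.3 CPM in P and 4.25 ± 2.8 in PY against 0.91 ± 0.57 in EV (n = 6 each). The median log2 fold change of the 7 was -0.464 in P and in PY, and with the experiment as a replicate block Smtn was lower in both (0.704-fold and 0.729-fold).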

How the data were processed

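The deposited table holds whole-number read counts per Ensembl gene, which per the submitters' processing notes were made from reads aligned with STAR 2.5.3a to mm10 (GRCm38) and counted with featureCounts 1.5.2. Those notes also name edgeR 3.22.0. Per the labels' protocols, strand-specific libraries were made with a TruSeq kit after ribosomal RNA depletion, and the annotation release, strand setting and treatment of reads with several matches are not given in the sources used here. Symbols and positions came from GENCODE M21, which named 53706 of 53801 identifiers and left 95 unnamed. Promoter sequences came from RefSeq.

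Counts were tested in R 4.3.3 with edgeR 4.0.16 (limma 3.58.1): genes were filtered by filterByExpr on group, scaled by TMM, and fitted by quasi-likelihood in a single model of the 9 group means. The 2-sided p-values were adjusted by Benjamini-Hochberg over 17015 genes, with a threshold of 0.05. CPM are counts-per-million of TMM-scaled library size, intervals of folds are approximate 95% intervals from the fitted SE, correlations used log2 CPM with a prior count of 2, and floors of 3 counts cover counting error only. The intervals of folds use normal quantiles, so they can be slightly narrower than the test itself allows. Scripts were tested on simulated counts.

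The labels give each library's experiment number, which pairs libraries across groups. Libraries of the same experiment deviated together from their group means (median r 0.364 over 192 pairs, 93.8% above 0.1) and those of different experiments did not (-0.0886 over 963 pairs, 23.2% above 0.1). Each comparison was therefore also fitted with a replicate block for experiment. Further alternatives were DESeq2 1.42.0, another scaling, no filter and a stricter filter on low counts, the compared groups alone, and leaving out each library or the 2 with the lowest totals.

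All 10 members were described, and values are given for every tested member. Of other brown and beige genes, the 8 with the smallest p at day 4 were named, and for each member the 3 genes of highest correlation, of which some are not reported here. The members and lists were chosen with earlier results of these data known.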

Additional observations from a re-analysis of the deposited data

Results flagged for a closer look

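Each member's CPM was examined in 88 groups of libraries, and in 16 of them the highest or lowest library lay farther from the others than Dixon's 95% criterion allows. The criterion flags about 1 in 20 by chance for independent values of normal distribution. Many CPM here are at or near 0 and members share libraries, so the 16 cannot be read as an excess. Of the 16, 4 were in P at day 2 of experiment 5, which was the highest of its group for Kcnk3 (15.1 CPM), Ucp2 (13.3 CPM), Letmd1 (68.9 CPM) and Cox7a1 (1.26 CPM). That library also had the highest sum of 16 general fat cell genes in its group, 15300 CPM. Elovl3 in P at day 4 of experiment 2 stood at 3.58 CPM, with 0 to 0.966 CPM in the others.

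Dio2 had such a library in 6 groups, with experiment 1 highest in 5 of them, at 0.675 CPM in EV, 1.17 CPM in P and 0.714 CPM in PY at day 0, 0.199 CPM in PY at day 2 and 0.726 CPM in P at day 4. The sixth was EV at day 2 of experiment 3, at 0.0885 CPM, which is a single count. Kcnk3 had one in EV at day 4 of experiment 2 (0.322 CPM), in EV at day 2 of experiment 6 (0.169 CPM) and in P at day 0 of experiment 6 (0.0503 CPM, a single count). Letmd1 had low libraries in P at day 0 of experiment 6 (30.3 CPM) and in PY at day 0 of experiment 3 (27.3 CPM).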

How the results depend on the processing

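Changing the scaling (104 of 104 results) kept every direction and call. The experiment as a replicate block kept 85 of 104, took 17 past the threshold or to a higher count, lost 1 and reversed 1: Cox8b in PY against P at day 4, never called, went from 0.11 to -0.21 on the log2 scale. The block called 1 member in EV from day 0 to 2, 2 from day 2 to 4 and 3 from day 0 to 4, and 2 each in P and PY from day 2 to 4. It changed no other call of a member than those given beside the results. DESeq2 called 1 member in EV from day 2 to 4 and 1 for the change of the P to EV difference from day 0 to 2. With only the compared groups in the fit, fewer genes passed the filter, and the members called were 2 in P and 1 in PY against EV at day 2, 0 in EV from day 0 to 4, 2 in P and 2 in PY from day 0 to 2, and 3 in PY from day 0 to 4. Without the 2 libraries of lowest total, Zfp516 in PY from day 0 to 4 was at 0.0071 against -0.09 (log2).

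Leaving out each library in turn gave 0 to 1 members called in EV from day 0 to 4 and 0 to 3 in P from day 2 to 4. Results that crossed 0, none of them called, were from day 0 to 4 in EV Cox7a1 (-0.19 to 0.47, log2), Kcnk3 (-2.12 to 2.41) and Prdm16 (-0.24 to 1.005), Zfp516 in P (-0.027 to 0.15) and in PY (-0.18 to 0.0080), and in PY against P at day 4 Cox7a1 (-0.11 to 0.40), Cox8b (-0.16 to 0.38), Prdm16 (-0.20 to 0.31) and Zfp516 (-0.050 to 0.035).

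Over all 17015 genes, calls under the block went from 483 to 934 (P against EV) and 806 to 1736 (PY) at day 2, from 916 to 1723 and 1332 to 2695 at day 4, from 1241 to 3746, 2377 to 4866 and 3875 to 6050 (EV, P, PY, day 0 to 2), and from 6 to 3427, 217 to 3434 and 0 to 970 (day 2 to 4). For day 2 to 4 DESeq2 called 280, 687 and 29. Without the filter the calls were 627 in EV and 1535 in P (day 0 to 2) and 99 in P (day 2 to 4). With the compared groups alone they were 483 and 880 in PY against EV at days 2 and 4, and 1418 and 0 in P (day 0 to 2, day 2 to 4). Leaving out 1 library moved some of these counts by over 1.5 times: from day 2 to 4 to 0 (without EV day 4 of experiment 2) to 340 (without EV day 4 of experiment 4) in EV, 13 (without P day 2 of experiment 4) to 794 (without P day 2 of experiment 5) in P and up to 137 (without PY day 4 of experiment 4) in PY, with most other libraries of EV and P also moving theirs. Against EV at day 2 they fell to 249 in P and 394 in PY without the guide library of experiment 5. From day 0 to 2 they fell to as few as 708 in EV (without EV day 0 of experiment 5) and 1537 in P (without P day 2 of experiment 5). For the change of the difference from EV between day 0 and 2 they ran from 0 to 14 in P (10 with all libraries) and from 9 to 46 in PY (20 with all libraries). Few counts also limit the tests: over the 51 libraries Dio2 had 286, Elovl3 311, Prdm16 529 and Cox7a1 583.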
